A study of Mus musculus with 8 samples.

Results

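The comparison described here asks whether TNF-α stimulation induced each gene to the same extent in GSTM1 KD as in control KD astrocytes. It used all 8 of the 8 RNA-seq libraries of the series, 2 in each of 4 groups, and every gene that passed a filter on low counts (15332 of 54146). The cells were primary cortical astrocytes of C57BL/6 mice, taken as mixed glia at postnatal day 2 to 5, infected with lentivirus that carried a short hairpin RNA against Gstm1 (GSTM1 KD) or a non-silencing hairpin (control KD), selected with puromycin and depleted of CD11b+ microglia. Each knockdown was kept at the basal level, with no stimulation, or given TNF-α for 6 h at a dose of 50 ng/ml. Both knockdowns therefore carried a lentiviral hairpin and had gone through selection, and no uninfected cells were compared. Each gene is described by its TNF-α response in control KD, its response in GSTM1 KD, and the difference of both on the log2 scale, which is positive where the induction was larger in GSTM1 KD. Levels are given as CPM, a gene's counts relative to the TMM-scaled size of its library. The study calls the replicates biological, but the labels do not say what distinguished them, so p-values measure the spread between these libraries.

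TNF-α is an inflammatory cytokine that binds its receptor and activates the transcription factor NF-κB, which turns on chemokines, adhesion molecules and its own inhibitors. Type I interferons act on another receptor, through the kinases JAK1 and TYK2. A complex that includes STAT2 and IRF9 then binds the interferon-stimulated response element in promoters and induces antiviral genes. In many cells TNF-α also induces interferon-β, so that part of a TNF-α response can run through this second pathway. GSTM1 is a glutathione S-transferase, an enzyme that joins glutathione to reactive compounds.

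Both kinds of promoter word occurred near genes of this comparison, and the stretches below are shown because they belong to genes whose induction is described with its values further on. They come from windows of 250 bases before to 50 bases after the transcription start in RefSeq (GRCm38.p6), matched by gene symbol, and each is read 5′ to 3′ on the strand of its gene. Capitals mark the core of the interferon-stimulated response element, GAAA, any pair of bases and GAAA, or its reverse complement, in the lines up to the first for Cxcl10, and the κB consensus from the next line on.
Ifit1, chr19:34640775-34640804: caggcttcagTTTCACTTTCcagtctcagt
Ifit1, chr19:34640794-34640823: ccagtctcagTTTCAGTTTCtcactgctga
Ifit3, chr19:34583397-34583426: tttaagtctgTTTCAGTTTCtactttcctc
Irgm2, chr11:58214903-58214932: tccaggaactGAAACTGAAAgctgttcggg
Igtp, chr11:58199512-58199541: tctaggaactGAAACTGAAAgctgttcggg
Stat2, chr10:128270266-128270295: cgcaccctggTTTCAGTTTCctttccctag
Rsad2, chr12:26456553-26456582: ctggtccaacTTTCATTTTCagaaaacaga
Cxcl10, chr5:92349083-92349112: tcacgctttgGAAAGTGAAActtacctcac
Cxcl10, chr5:92348973-92349002: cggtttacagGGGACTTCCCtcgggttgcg
Tnip1, chr11:54962978-54963007: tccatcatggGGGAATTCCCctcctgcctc
Cxcl2, chr5:90903792-90903821: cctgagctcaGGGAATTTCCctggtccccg

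This core, read on both strands, was in 3.44% of all 32851 windows and in those of 3.80% of the tested genes that have one. It was in the windows of 25 of the 41 interferon-stimulated genes with a window (61.0%). Of the 17 genes with a window whose induction DESeq2 called larger in GSTM1 KD, 10 had it (58.8%), while 23.5% had the κB consensus and 35.3% the AP-1 word TGANTCA, which was also in 24.4% of the interferon-stimulated genes' windows. Among genes at an unadjusted p under 0.05 for the difference, it was in 37 of 119 windows where the induction was larger in GSTM1 KD (31.1%) and in 0 of 52 where it was smaller. The κB consensus was in 4.51% of all windows, in those of 6.63% of the tested genes, of 12.6% of the former and 13.5% of the latter group of genes, and in 8 of 17 windows of the NF-κB feedback list (47.1%). The AP-1 word was in 7.81% of all windows, those of 6.35% of the tested genes, 16% of the former and 9.62% of the latter. A match is a description of the sequence, not of binding.

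Gstm1, the knockdown target (ENSMUSG00000058135.12, chromosome 3 from 108012255 to 108017973, minus strand), stood at 231 and 377 CPM in control KD at the basal level and 209 and 391 CPM after TNF-α stimulation. In GSTM1 KD it was at 29 and 31.4 CPM and then at 24.3 and 23.3 CPM. All 4 libraries labelled GSTM1 KD were below all 4 of control KD in both states. Its response to TNF-α passed in neither knockdown, and the difference in response was -0.32 (standard error 0.45, 95% interval -1.38 to 0.74).

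Library totals ran from 17349682 to 34434615 counts, and 19371 to 21557 genes had a count. The astrocyte identity list, with 16 of its 18 genes tested, summed to 4222 and 9402 CPM in control KD at the basal level and 4233 and 9400 CPM after stimulation, so replicate 1 was lower in both states. In GSTM1 KD it summed to 8444 and 12375, then 8439 and 12058 CPM. Among its genes, Gjb6 and Slc7a10 had at most 3 counts in any library. Microglia and macrophage markers summed to 47.2 to 61.7 CPM in every library, with at most 9 counts of Cx3cr1 and 2 of P2ry12. Of 15 such markers 11 were tested, 3 of them at or below 3 counts in both libraries of a group. The median log2 difference of these 11, GSTM1 KD minus control KD, was -1.543 at the basal level and -1.335 after stimulation. In edgeR 0 of them passed as higher or lower in either state. Similar sums therefore do not mean similar levels of each marker. In these bulk samples, fewer cells of a type and less RNA per cell cannot be told apart.

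TNF-α stimulation changed many genes in both knockdowns. edgeR called 322 genes higher (2.10% of those tested) and 81 lower (0.528%) in control KD, and 361 higher (2.35%) and 45 lower (0.294%) in GSTM1 KD, at an adjusted p under 0.05. On the mean of both responses, 738 genes rose (4.81%) and 300 fell (1.96%). These counts depended on single libraries. Genes higher in GSTM1 KD numbered 74 and 80 without GSTM1 KD basal replicates 2 and 1 and 165 without GSTM1 KD TNF-α replicate 1, and those higher in control KD 164 and 198 without control KD basal replicates 2 and 1 and 167 without control KD TNF-α replicate 2. Genes that rose on the mean numbered 418 and 435 without GSTM1 KD basal replicates 1 and 2 and 460 without GSTM1 KD TNF-α replicate 1. The fallen genes moved further, to 15 in control KD without control KD TNF-α replicate 2, 0 in GSTM1 KD without GSTM1 KD basal replicate 2 and 76 on the mean without GSTM1 KD TNF-α replicate 1.

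The difference between the responses was small for most genes. Its median over all 15332 genes was 0.017 on the log2 scale, with quartiles at -0.091 and 0.132, and the median standard error was 0.248. edgeR called no gene at an adjusted p under 0.05 (0 higher and 0 lower, with an adjusted p of 1 for every gene). At an unadjusted p under 0.05 it gave 295 genes (1.92%), which is below the 5% that p-values give when no gene differs. Of these, 198 had the larger response value in GSTM1 KD (1.29%) and 97 the smaller (0.633%). The 198 became 130 without GSTM1 KD TNF-α replicate 1, and the 97 became 65 without GSTM1 KD basal replicate 2 and 155 and 150 without control KD basal replicate 2 and control KD TNF-α replicate 1. limma-voom called 0 genes, and edgeR 2 without GSTM1 KD basal replicate 2. DESeq2 called 27 of 17235, with 22 more induced (0.128%) and 5 less induced in GSTM1 KD (0.0290%), and edgeR without a filter on low counts called 103 and 31. The DESeq2 count was between 4 and 67 when 1 library was left out, and 7 of the 8 omissions moved it by more than 1.5 times. It was 4 without GSTM1 KD TNF-α replicate 1, 8 without GSTM1 KD basal replicate 2, 12 and 17 without control KD TNF-α replicates 1 and 2, 13 without GSTM1 KD basal replicate 1, 15 without control KD basal replicate 2, and 67 without GSTM1 KD TNF-α replicate 2.

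**Figure D1:**
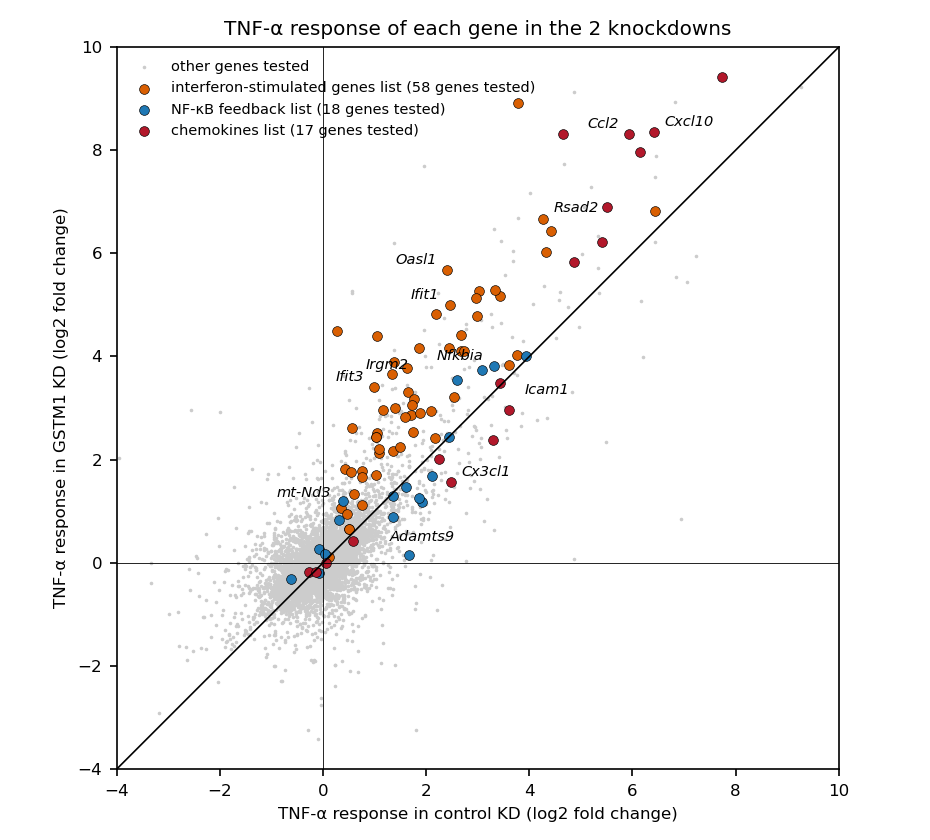
Log2 TNF-α response in control KD (horizontal) against GSTM1 KD (vertical) for each gene tested, 2 libraries per group, with 3 gene lists in colour and a line where both responses are equal. Of the 58 interferon-stimulated genes, 57 lie above the line (54.7% of all genes tested), while NF-κB feedback genes lie on both sides. Outside the axes lie 18 genes.

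Interferon-stimulated genes, which encode antiviral and antibacterial effectors, had the larger fold induction in GSTM1 KD in nearly all cases, though edgeR called none at the adjusted threshold with the filter on low counts. Without that filter edgeR called 38 of the 58, and 103 genes higher and 31 lower in the whole table. The lowest adjusted p of the whole table was then 5.79e-37 in edgeR, from the same libraries. The list's median difference hardly moved (1.42 without the filter), so these calls came with a change in p and not in size. The cause of that change is not known. Of the 22 genes more induced by DESeq2's call, 16 were in the lists of interferon-stimulated, interferon signalling and antigen presentation genes, which hold 106 of the 15332 genes tested. Of 58 listed genes, all tested, 57 had a positive difference (54.7% of all genes tested) and Ifi27 had -0.0002. The median difference was 1.41 on the log2 scale, against 0.017 over all genes tested, and 1.39 without the 4 genes that were at or below 3 counts in both libraries of a group. At an unadjusted p under 0.05, 40 of the 58 were higher and 0 lower (over all genes, 1.29% and 0.633%), and DESeq2 called 13 higher (0.128%). In 45 of the 58, each of the 4 ratios of a stimulated to a basal library in GSTM1 KD was above each of those in control KD, as in 5.58% of all genes. Stimulation raised 29 of the 58 in control KD and 52 in GSTM1 KD, with median responses of 1.64 and 3.13 (over all genes, 2.10% and 2.35% rose). At the basal level, 2 of the 58 were higher and 1 lower in GSTM1 KD than in control KD (over all genes, 8.19% and 9.82%), with a median of -0.09. After stimulation 39 were higher and 0 lower (over all genes, 10.2% and 10.1%), with a median of 1.31. No gene of the whole table passed as lower at the basal level and higher after stimulation.

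The summed level of the list was 1155 and 1530 CPM in control KD and 1410 and 1329 CPM in GSTM1 KD at the basal level. After stimulation it was 3714 and 5110 CPM in control KD and 12055 and 7450 CPM in GSTM1 KD. The groups overlapped before stimulation and did not afterwards. The pair of stimulated GSTM1 KD libraries was far apart, with replicate 1 above replicate 2 in 57 of the 58 genes by a median of 0.82 on the log2 scale. The lower of the pair still exceeded both stimulated control KD libraries in 50 of the 58, and the share of all genes that did so was not counted. Without replicate 1 the median difference was 0.97, with 58 of 58 positive and 32 at an unadjusted p under 0.05, and without replicate 2 it was 1.72, with 57 positive and 47 at that p.

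**Figure D2:**
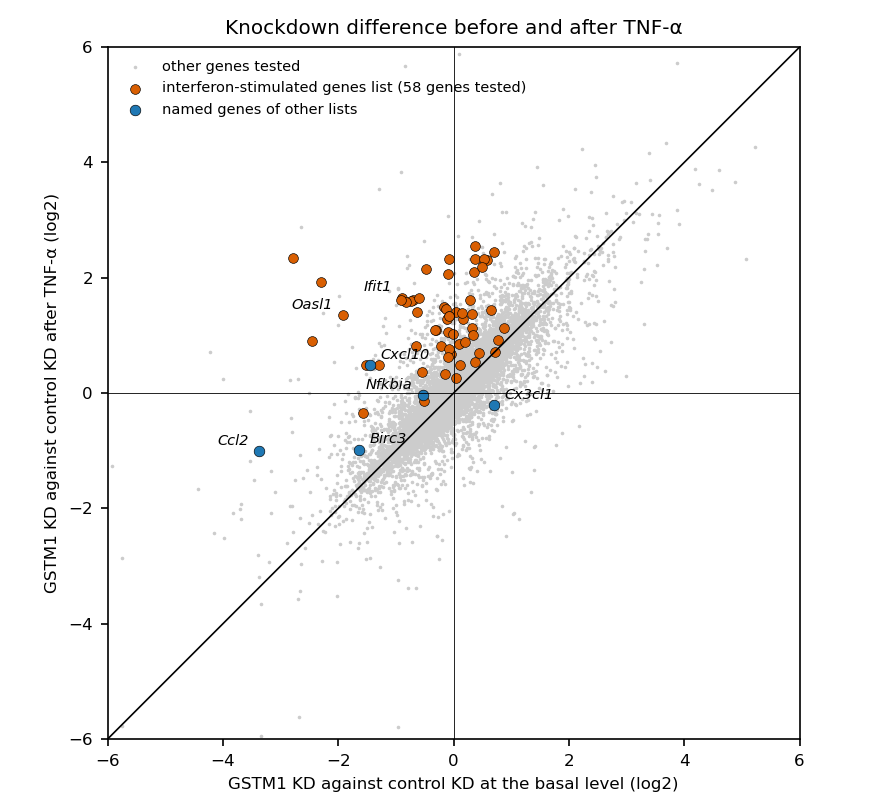
Log2 difference between GSTM1 KD and control KD at the basal level (horizontal) and after TNF-α (vertical) for each gene tested, 2 libraries per group, with a line where both are equal. The 58 interferon-stimulated genes have a median of -0.09 on the horizontal and 1.31 on the vertical axis; 24 genes lie outside the axes.

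Among the effectors, Ifit1 encodes a protein that binds RNA lacking host cap marks (ENSMUSG00000034459.8, chromosome 19 from 34640871 to 34650009, plus strand). Ifit1 was at 34.2 and 36.7 CPM in control KD at the basal level and at 202 and 186 CPM after stimulation. In GSTM1 KD it started lower, at 22 and 16.2 CPM, and reached 804 and 416 CPM. Its mean level thus rose 5.47-fold in control KD and 31.9-fold in GSTM1 KD, and the groups did not overlap in either state. The difference in induction was 2.54 on the log2 scale (standard error 0.42, unadjusted p = 0.00044 in edgeR, adjusted p = 2.9e-06 in DESeq2).

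Ifit3 encodes a partner of the same family and shares 31.7% of its 100-base transcript stretches with Ifit3b, so reads of this pair may have been divided between them. Ifit3 was at 124 and 236 CPM, then 310 and 406 CPM in control KD, and at 118 and 85.5 CPM, then 1355 and 789 CPM in GSTM1 KD. Its response passed in GSTM1 KD (3.40, edgeR adjusted p = 0.00598) and not in control KD (0.99, edgeR adjusted p = 0.302), and the difference was 2.41 (standard error 0.52). Ifit3b differed by 2.15 (standard error 0.54) and Ifit2 by 1.41 (standard error 0.33). Parp14, an ADP-ribosyltransferase that interferons induce, differed by 1.42 (standard error 0.33, adjusted p = 0.0314 in DESeq2). Rsad2, which encodes viperin, an enzyme that makes a chain-terminating nucleotide, was at 4.98 and 6.92 CPM and then 98.3 and 130 CPM in control KD. In GSTM1 KD Rsad2 went from 6.52 and 4.66 CPM to 802 and 344 CPM, a 103-fold rise against 19.2-fold. Oasl1, of the oligoadenylate synthetase-like family, showed a difference of 3.27 (standard error 0.80) from levels of 0.301 to 1.67 CPM at the basal level.

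Several listed genes, grouped here after their values were seen, encode immunity-related GTPases, which act on membranes that enclose intracellular pathogens. Irgm2 (ENSMUSG00000069874.7, chromosome 11 from 58199618 to 58222782, plus strand) was at 17.2 and 19.3 CPM in control KD and 11.7 and 10.7 CPM in GSTM1 KD at the basal level. It reached 57.9 and 73.9 CPM in control KD and 256 and 146 CPM in GSTM1 KD, so the order of the knockdowns was reversed by stimulation in every library. The difference was 2.31 (standard error 0.37, unadjusted p = 0.000379 in edgeR, adjusted p = 7.3e-06 in DESeq2). Irgm1 rose from 37.5 and 40.6 to 117 and 128 CPM in control KD and from 37.7 and 31.5 to 444 and 248 CPM in GSTM1 KD. Igtp, whose exons overlap those of Irgm2 on the same strand, differed by 1.6 (standard error 0.39), Iigp1 by 2.18 (standard error 0.53) and Ifi47 by 2.25 (standard error 0.54). The related 9930111J21Rik2 differed by 2.27, but shares 48.3% of its stretches with other genes, as Tgtp1 (1.74, and 1.15 without GSTM1 KD TNF-α replicate 1) does for 73.1%.

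Genes of the interferon signalling chain were split. Of 25 listed genes, 16 had a positive difference, which is near the share over all genes tested (54.7%), and the median was 0.09. At an unadjusted p under 0.05, 7 were higher and 0 lower (over all genes, 1.29% and 0.633%). Irf9, the DNA-binding partner of STAT2, went from 32.3 and 34.9 to 59.3 and 52.7 CPM in control KD and from 37.1 and 34.5 to 136 and 104 CPM in GSTM1 KD. Its difference was 1.01 (standard error 0.20, adjusted p = 0.0405 in DESeq2). Stat2 went from 21.7 and 32.0 to 56.8 and 66.8 CPM in control KD and from 21.2 and 19.3 to 187 and 105 CPM in GSTM1 KD. For Stat2 only the response in GSTM1 KD passed in edgeR, while both passed in DESeq2, and the difference was 1.64 (standard error 0.41, adjusted p = 0.0391 in DESeq2). Irf7 (1.72), Irf5 (0.96) and Ifngr2 (0.39), which encodes a chain of the interferon-γ receptor, were among the 7 and were not called by DESeq2. Irf1, a transcription factor that NF-κB induces, had responses of 3.11 in control KD and 3.22 in GSTM1 KD, with a difference of 0.11 (95% interval -0.34 to 0.55), and Ikbke had -0.34 (standard error 0.34), which became -0.55 and -0.11 without control KD TNF-α replicates 1 and 2.

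Usp18, an inhibitor of this pathway, encodes a protease that removes ISG15 from proteins and blocks the interferon receptor. It was at 16.1 and 19.3 CPM, then 46.7 and 42.1 CPM in control KD, and at 12.9 and 8.17 CPM, then 182 and 86.8 CPM in GSTM1 KD. The difference was 2.34 (standard error 0.50, adjusted p = 0.00129 in DESeq2). Socs1, an inhibitor of JAK kinases, had 1.87 (standard error 0.52, unadjusted p = 0.00822 in edgeR), and 1.17 without GSTM1 KD TNF-α replicate 1. Both were chosen after their values were seen.

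Of the ligands, Ifnb1, which encodes interferon-β, had 0 counts in each of the 4 basal libraries, which allows up to 3 counts per library. Stimulated control KD had 7 counts and 1 count of it, and stimulated GSTM1 KD 25 and 9. The stimulated groups did not overlap, but these are few counts and no fold is given. Ifna4, Ifnl2, Ifnl3 and Ifng had 0 counts in all 8 libraries, and Tnf had 17 and 5 counts in stimulated control KD but 2 and 1 in stimulated GSTM1 KD.

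**Figure D3:**
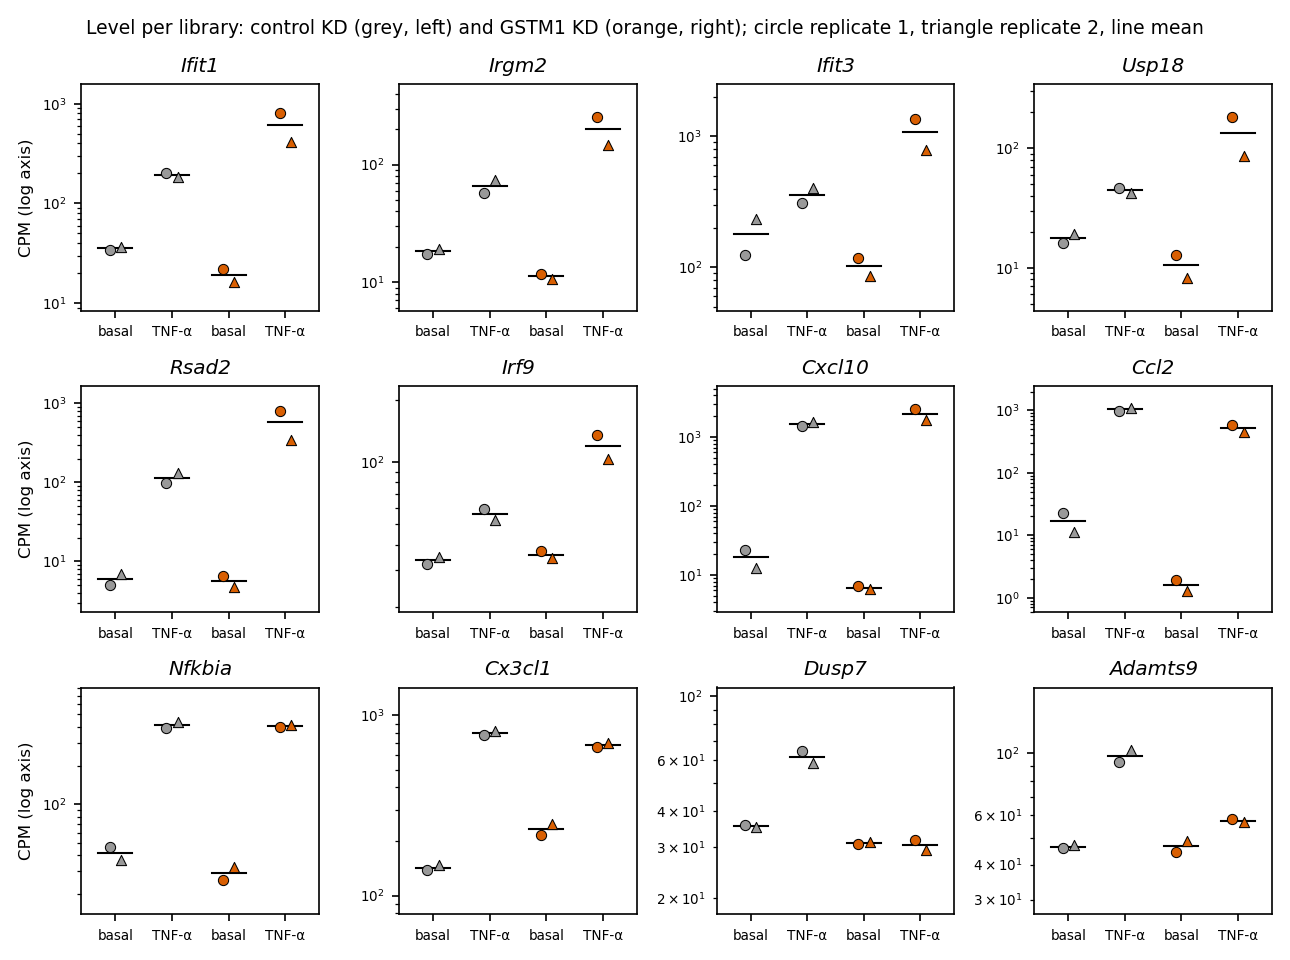
CPM per library on a log axis for 12 genes, with control KD in grey, GSTM1 KD in orange, replicate 1 as a circle, replicate 2 as a triangle and the mean of 2 as a line. Interferon-stimulated genes such as Ifit1 rise further in GSTM1 KD, from 22 and 16.2 to 804 and 416 CPM, while Dusp7 and Adamts9 rise in control KD.

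Antigen presentation genes, which interferons also induce, had a smaller shift. Of 23 genes, 22 had a positive difference (54.7% of all genes tested) with a median of 0.36, and 6 were higher at an unadjusted p under 0.05 (1.29% of all genes). Erap1 was the exception in sign (-0.34, standard error 0.34, but -0.05 without control KD TNF-α replicate 2 and -0.88 with effective lengths as offsets). H2-Q6, a class I gene, was called by DESeq2 with 1.99 (standard error 0.39), from 3.03 and 2.46 to 13.7 and 12.5 CPM in control KD and from 1.12 and 0.952 to 24.3 and 14.9 CPM in GSTM1 KD. H2-Q6 shares 13% of its stretches with other genes, mainly H2-Q7. Cd74, the class II invariant chain, had 1.80 (standard error 0.48), Nlrc5, the activator of class I genes, 1.17 (standard error 0.48) and Tap1, a peptide transporter, 0.64 (standard error 0.24). Without GSTM1 KD TNF-α replicate 1, Nlrc5 was at 0.61 (edgeR unadjusted p = 0.164; 2.15 with all libraries and effective lengths as offsets) and Tap1 at 0.35 (edgeR unadjusted p = 0.0814). Stimulation raised 13 of the 23 in control KD and 17 in GSTM1 KD in edgeR (2.10% and 2.35% of all genes).

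Slfn8 and Rnf213, also called by DESeq2, are in none of the lists. Slfn8, a Schlafen family gene, went from 1.70 and 1.84 to 7.45 and 9.27 CPM in control KD and from 1.37 and 0.651 to 53.1 and 24.4 CPM in GSTM1 KD, so the log2 difference was 2.99 (standard error 0.64). Rnf213, an E3 ubiquitin ligase, had 1.42 (standard error 0.32). Tnfsf10, which encodes the death ligand TRAIL, was not called by DESeq2 (adjusted p = 0.15), but had 3.16 (standard error 0.83, unadjusted p = 0.00637 in edgeR).

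Chemokines, which draw leukocytes to inflamed tissue, went in both directions. Of 26 listed, 17 were tested, with a median difference of 0.09 that turned to -0.05 without the 4 genes at or below 3 counts in both libraries of a group. At an unadjusted p under 0.05, 2 were higher and 1 lower (over all genes, 1.29% and 0.633%). Cxcl10, a ligand of CXCR3 whose window holds both promoter words, was at 23.2 and 12.5 CPM in control KD and 6.91 and 6.16 CPM in GSTM1 KD at the basal level. It reached 1419 and 1637 CPM in control KD and 2528 and 1740 CPM in GSTM1 KD. The difference was 1.94 (standard error 0.43, adjusted p = 0.00247 in DESeq2), and Cxcl10 passed as lower in GSTM1 KD at the basal level but not as higher after stimulation (edgeR adjusted p = 0.26).

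Ccl2, a monocyte chemokine, shows how a fold and a gain can part. At the basal level it was at 22.6 and 11.3 CPM in control KD and at 1.93 and 1.3 CPM in GSTM1 KD. After stimulation it reached 980 and 1099 CPM in control KD and 589 and 446 CPM in GSTM1 KD, so GSTM1 KD was the lower in every library of both states. The induction was 61.3-fold in control KD and 320-fold in GSTM1 KD, so the log2 difference was 2.37 (standard error 0.50, adjusted p = 0.000425 in DESeq2). The gain, mean CPM after stimulation minus mean CPM before, was 1022 CPM in control KD but 516 CPM in GSTM1 KD.

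Cx3cl1, a membrane-bound chemokine whose receptor marks microglia, was the lower-induced gene with the smallest p. Its basal level was 139 and 147 CPM in control KD against 218 and 249 CPM in GSTM1 KD, and after stimulation it was at 776 and 816 against 666 and 707 CPM. The order of the knockdowns was reversed by stimulation, and no 2 groups overlapped. It rose 5.57-fold in control KD and 2.94-fold in GSTM1 KD, so the log2 difference was -0.92 (standard error 0.14, unadjusted p = 0.000323 in edgeR, adjusted p = 0.000425 in DESeq2).

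For Cxcl1 and Cxcl2, neutrophil chemokines, and Csf2, the growth factor GM-CSF, the study reports a severely impaired induction in GSTM1 KD. It took them from its most changed genes after TNF-α stimulation and states no test of the difference in fold induction, the measure used here. Cxcl1 went from 9.42 and 6.22 to 33.0 and 122 CPM in control KD and from 2.19 and 1.65 to 9.28 and 11 CPM in GSTM1 KD. Its difference of -0.92 had a standard error of 0.87 and an unadjusted p of 0.326 in edgeR, and was 0.30 without control KD TNF-α replicate 2. Cxcl2 had -0.64 (standard error 0.73, unadjusted p = 0.407 in edgeR; -1.42 and -0.18 without control KD basal replicates 1 and 2), with 3.45 and 1.45, then 22.8 and 38.1 CPM in control KD and 0.386 and 0.651, then 4.20 and 3.85 CPM in GSTM1 KD. Their levels after stimulation were lower in GSTM1 KD (-2.94 and -2.91, edgeR adjusted p = 0.015 and 0.0058), while the 95% intervals of the difference in fold induction included 0. Csf2 had 0 counts in both basal GSTM1 KD libraries, so its induction was at least 3.97-fold there, computed against 3 counts per library, and 14.5-fold in control KD. The lower bound does not show which fold was the larger. The fitted difference was 2.90 on the log2 scale, 2.235 to 3.196 with a library left out. Over the other alternatives, filters aside, it was 0.84 to 2.93, so its size is uncertain. The gain was 3.79 CPM in control KD against 0.553 CPM in GSTM1 KD.

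The NF-κB feedback list, inhibitors that NF-κB itself induces, had a median difference of 0.03. Of 18 genes, 3 were higher and 2 lower at an unadjusted p under 0.05 (over all genes, 1.29% and 0.633%). Zfp36, which destabilises cytokine mRNAs, had 0.80 (standard error 0.18) and passed as lower in GSTM1 KD at the basal level. Birc3 had 0.66 (standard error 0.21) and passed as lower in GSTM1 KD in both states. The gain of Birc3 was 67.9 CPM in control KD against 36.0 CPM in GSTM1 KD. N4bp1 had 0.53 (standard error 0.19), which became 0.36 without GSTM1 KD TNF-α replicate 1. Nfkbib, an IκB protein, had -0.47 (standard error 0.15) and Tnip1, a partner of the ubiquitin editor A20, -0.42 (standard error 0.15). Tnfaip3, which encodes A20, had 0.93 (standard error 0.43, unadjusted p = 0.0644 in edgeR), which became 0.35 without control KD basal replicate 1, and Zc3h12a had -0.74 (standard error 0.72), which became 0.34 without control KD TNF-α replicate 2.

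The 10 genes with the smallest p for the mean response, among those with a mean log2 response of at least 2, were Cxcl10, Cx3cl1 and 8 others, whose differences lay between -0.52 and 1.00. Nfkbia, the IκBα gene, went from 46.7 and 37.0 to 394 and 439 CPM in control KD and from 25.8 and 32.3 to 396 and 417 CPM in GSTM1 KD. The stimulated levels overlapped, and the difference was 0.49 (standard error 0.21, 95% interval -0.01 to 0.99), and 0.31 without control KD basal replicate 1. Nfkbie had 0.06 (standard error 0.17), Icam1 -0.03 (standard error 0.23) and Vcam1, like Icam1 an adhesion molecule, -0.27 (standard error 0.19; -0.43 and -0.09 without control KD TNF-α replicates 1 and 2). Icam1 rose from 33.3 and 29.1 to 379 and 435 CPM in control KD and from 15.2 and 12.7 to 202 and 154 CPM in GSTM1 KD, a 13.1-fold and a 12.8-fold induction, and it passed as lower in GSTM1 KD in both states. Stx11 had 1.00 (standard error 0.24), which became 0.14 with effective lengths as offsets, and Ripk2, a kinase downstream of NOD receptors, -0.52 (standard error 0.20), which became -0.32 without control KD TNF-α replicate 2. Over the 196 genes that rose on average with a log2 response of at least 2, the median difference was 0.79. At an unadjusted p under 0.05, 61 of them were higher and 5 lower (over all genes, 1.29% and 0.633%). Over all 738 that rose on average the median difference was 0.05, with 112 higher and 45 lower at that p. A gene could enter either set through a high response in 1 knockdown, so these values are a description. Ifit3, for example, had a mean response of 2.20, from 0.99 in control KD and 3.40 in GSTM1 KD. The 738 include 56 of the 58 interferon-stimulated genes, and the number of these among the 196 was not counted.

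**Figure D4:**
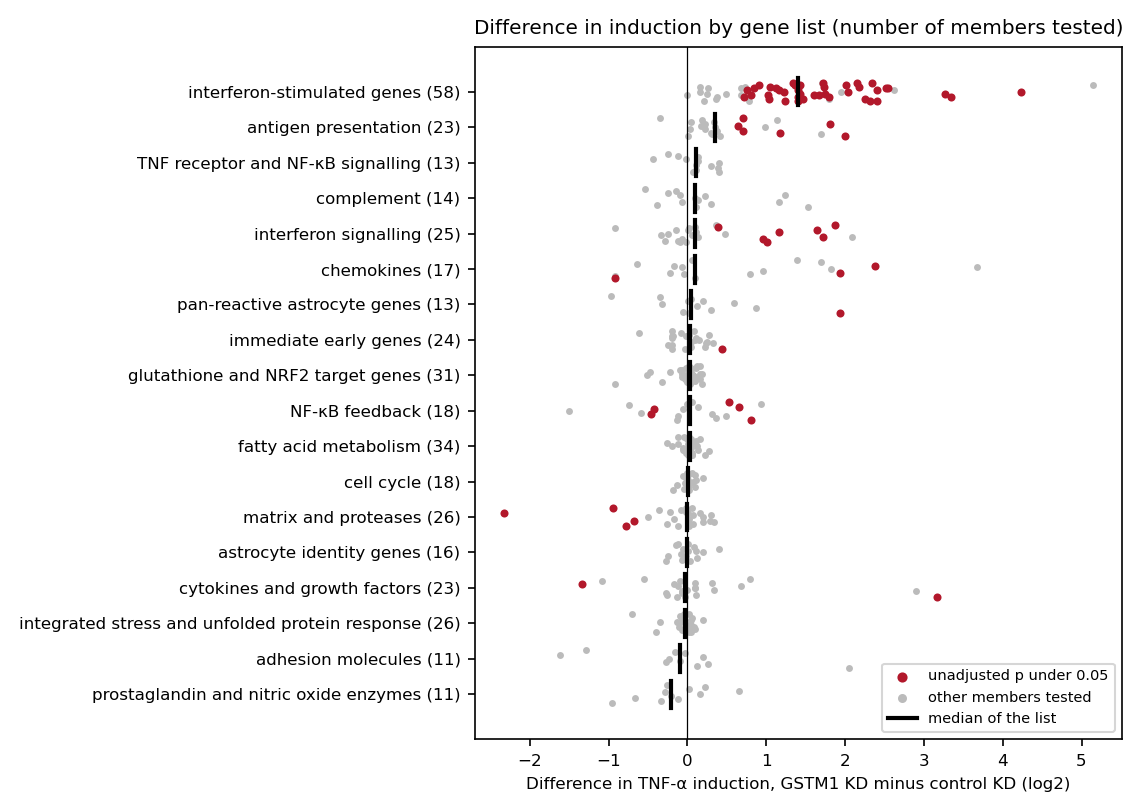
Difference in TNF-α induction (log2, GSTM1 KD minus control KD) of each tested member of 18 gene lists, in red at an unadjusted p under 0.05, with the median as a bar and the number tested in brackets. The median is 1.41 for the interferon-stimulated genes and between -0.21 and 0.36 for the other lists.

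The genes less induced in GSTM1 KD formed no single group among the lists. Of the 97 at an unadjusted p under 0.05, 0 were in the interferon lists, which hold 106 of the 15332 genes tested, so a count of 0 is near the share over all genes. Of the 198 more induced, 53 were. edgeR called 44 of the 97 as risen in control KD but 14 in GSTM1 KD (over all genes, 2.10% and 2.35%). The corresponding counts for the 198 were 52 and 111. Since these counts share the contrast that chose the genes, they are given as a description.

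Dusp7, a phosphatase of ERK kinases (ENSMUSG00000053716.9, chromosome 9 from 106368632 to 106375724, plus strand), went from 35.6 and 35.1 to 64.5 and 58.6 CPM in control KD. In GSTM1 KD Dusp7 was at 30.8 and 31.2 CPM before and 31.7 and 29.3 CPM after stimulation. The stimulated control KD libraries stood apart from the other 6. The response was 0.80 in control KD (edgeR adjusted p = 0.00764) and -0.02 in GSTM1 KD (edgeR adjusted p = 1), and the difference was -0.82 (standard error 0.13, adjusted p = 0.0179 in DESeq2).

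Adamts9, a secreted protease that cleaves proteoglycans (chromosome 6 from 92772699 to 92943492, minus strand, with exons of other genes on the opposite strand), had the same basal level in both knockdowns, 45.8 and 47.0 CPM in control KD and 44.5 and 48.5 CPM in GSTM1 KD. It rose to 93.5 and 103 CPM in control KD and was at 58.1 and 56.7 CPM in stimulated GSTM1 KD, where the response did not pass (0.30, edgeR adjusted p = 0.187). The difference was -0.78 (standard error 0.12, adjusted p = 0.0191 in DESeq2). St3gal1, a sialyltransferase, went from 27.9 and 25.8 to 57.1 and 47.7 CPM in control KD and from 42.5 and 54.1 to 43.2 and 49.0 CPM in GSTM1 KD. Its basal level was the higher in GSTM1 KD, and the difference was -1.03 (standard error 0.21, adjusted p = 0.0497 in DESeq2).

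Of 26 tested matrix and protease genes, 4 were lower at an unadjusted p under 0.05 and 0 higher (over all genes, 0.633% and 1.29%), while the median was -0.01. Besides Adamts9 these were Plau, the urokinase gene, with -0.67 (standard error 0.22), Adamts4 with -0.95 (standard error 0.35) and Mmp9 with -2.32 (standard error 0.66), whose levels stayed at or below 1.32 CPM. Plau rose from 11.2 and 11.8 to 60.5 and 51.2 CPM in control KD and from 4.94 and 6.36 to 16.5 and 17.9 CPM in GSTM1 KD. Among cytokines, Tnfsf9, the 4-1BB ligand, had -1.34 (standard error 0.42). Selp, P-selectin, rose in both knockdowns, from 0.679 and 0.587 to 52.0 and 120 CPM and from 0.987 and 0.551 to 34.6 and 34 CPM, with a difference of -1.61 (standard error 0.76, unadjusted p = 0.0716 in edgeR) that became -0.91 without control KD TNF-α replicate 2.

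Cacna1e, Zfp385b, Syt7 and Art3, all of low level, passed as higher in GSTM1 KD at the basal level. Cacna1e, a calcium channel subunit, went from 0.933 and 1.6 to 6.29 and 7.58 CPM in control KD and from 4.98 and 7.16 to 8.64 and 11 CPM in GSTM1 KD, so the log2 difference was -1.77 (standard error 0.44). Zfp385b had -1.49 (standard error 0.36) and Syt7, a synaptotagmin, -1.89 (standard error 0.71), which became -0.95 without control KD TNF-α replicate 2. Art3 (-1.81, from -2.91 to -1.08 without control KD basal replicates 2 and 1) overlaps exons of Cxcl10 on the opposite strand, and the sources used here do not say if reads were counted by strand, so its value is uncertain. Col27a1, a fibrillar collagen gene, had -1.10 (standard error 0.35), with like basal levels of 2.70 to 4.11 CPM and 12.4 and 11.3 against 5.59 and 6.55 CPM after stimulation. Of the non-coding genes, RP23-99G21.3 had -3.14 (standard error 0.76) and Gm26809 -1.06 (standard error 0.32), which share 14.2% and 27.6% of their stretches with other genes, one another included.

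Also among the genes called by DESeq2 were a mitochondrial gene and a copy of mitochondrial sequence. mt-Nd3, a subunit of respiratory complex I, was at 22.2 and 26.9, then 10.7 and 12.2 CPM in control KD and at 17.5 and 15.3, then 26.5 and 47.0 CPM in GSTM1 KD, so the log2 difference was 2.26 (standard error 0.37). The other 12 mitochondrial mRNAs had differences between -0.001 and 0.38. Of the stretches of mt-Nd3, 97.6% also occur in the gene Gm28438, and all (100%) of those of RP23-8J15.7, a pseudogene on chromosome 1 from 24611535 to 24612410 with -3.13 (standard error 0.72), also occur in mt-Nd4. How reads were divided among such copies was not tested, and both values are uncertain.

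The other lists had 0 to 2 members each at an unadjusted p under 0.05, which 1.92% of all genes tested reached. Their medians were 0.11 for TNF receptor and NF-κB signalling (0 of 13 genes, with Nfkb1 at -0.44, or 0.0045 without control KD TNF-α replicate 2, and Relb at 0.40, or 0.24 without control KD basal replicate 1), 0.03 for immediate early genes (1 of 24, Junb at 0.44), 0.10 for complement (0 of 14) and 0.05 for pan-reactive astrocyte genes (1 of 13, Cxcl10). They were 0.03 for glutathione and NRF2 target genes (0 of 31), 0.03 for fatty acid metabolism (0 of 34), -0.03 for the integrated stress and unfolded protein response (0 of 26), -0.21 for prostaglandin and nitric oxide enzymes (0 of 11), -0.09 for adhesion molecules (0 of 11) and -0.03 for cytokines and growth factors (2 of 23). None of the 18 cell cycle genes, the 16 astrocyte identity genes or the tested markers of other cell types reached that p in edgeR. The medians of the marker lists were between -0.02 and 0.16. The microglia and macrophage median of 0.09 turned to -0.065 without the 3 genes at or below 3 counts in both libraries of a group.

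A difference in fold induction and one in gain had opposite signs for part of the genes. Of the 738 genes that rose on average, 122 had a larger fold but a smaller gain in GSTM1 KD, and 47 the reverse. Among the 58 interferon-stimulated genes the gain was larger in GSTM1 KD for 57 (50.5% of all genes tested), among the 23 antigen presentation genes for all 23, and among the 17 chemokines for 4. Of the 22 genes more induced by DESeq2's call, 21 had the larger gain in GSTM1 KD, and Ccl2 was the exception.

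**Figure D5:**
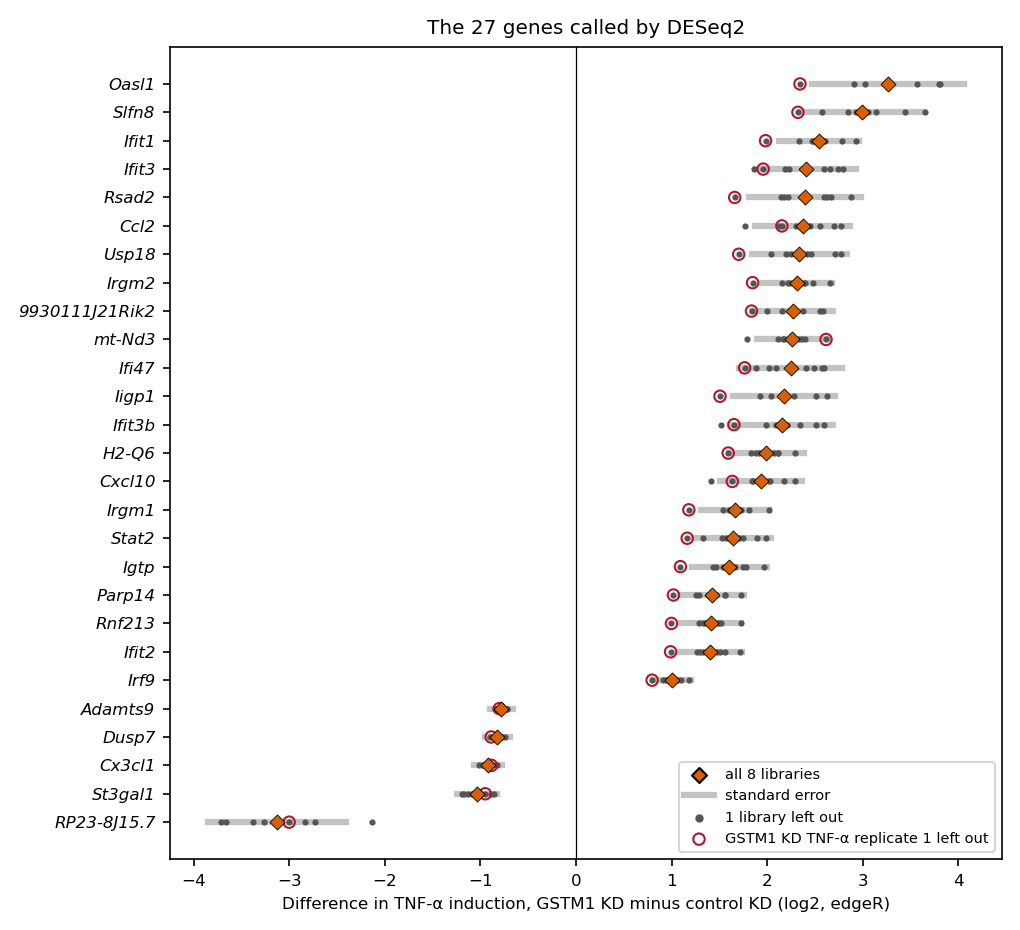
Difference in TNF-α induction (log2, edgeR) of the 27 genes called by DESeq2, from all 8 libraries (diamond, with its standard error as a bar) and with each library left out in turn (dots, with a red ring for GSTM1 KD TNF-α replicate 1). Each gene kept its sign in all 8 omissions, which the choice of these genes from the same libraries largely fixes. Ifit1 ran from 1.98 to 2.94 (2.94 without GSTM1 KD TNF-α replicate 2).

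No direction of these 27 differences turned when a library was left out. The genes were chosen by this same difference in all 8 libraries, and each omission reuses the rest of these. Kept signs are therefore largely fixed by the choice, and the ranges below are a description. Ifit1 ran from 1.98 without GSTM1 KD TNF-α replicate 1 to 2.94, Irgm2 from 1.85 to 2.66, Rsad2 from 1.66 to 2.88, Irf9 from 0.80 to 1.18 and Ccl2 from 1.77 to 2.77. Of the lower-induced genes, Cx3cl1 ran from -1.01 to -0.83, Dusp7 from -0.90 to -0.74, Adamts9 from -0.84 to -0.72 and St3gal1 from -1.20 to -0.86, while RP23-8J15.7 moved further, from -3.71 to -2.14 without GSTM1 KD basal replicates 2 and 1. Without GSTM1 KD TNF-α replicate 1, DESeq2 called Ifit1, Irgm1, Irgm2 and mt-Nd3.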

How the data were processed

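Polyadenylated RNA was sequenced as directional paired-end libraries. Per the submitters' processing notes, STAR 2.5.4b and RSEM 1.3.0 were used, and the deposited tables, 1 per library, give for each of 54146 Ensembl genes an expected count, a TPM and an effective length. The expected (estimated) counts deposited by the authors were rounded to whole numbers and tested. The authors' TPM values entered no test, and the effective lengths served as offsets in 1 alternative. Coordinates are those of GENCODE M21 (GRCm38), matched by gene identifier for 54079 genes. Sequences come from RefSeq GRCm38.p6. Use of strand in the counting is not given in the sources used here.

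Groups were taken from the labels, 2 libraries each. Genes were filtered with filterByExpr, TMM-normalised and fitted in edgeR 4.0.16 (R 4.3.3) by the quasi-likelihood method with 1 mean per group over all 8 libraries. The contrast was (GSTM1 KD TNF-α minus GSTM1 KD basal) minus (control KD TNF-α minus control KD basal), two-sided, with Benjamini-Hochberg adjustment over all genes tested and a threshold of 0.05. Intervals are 95% intervals from this model. DESeq2 1.42.0 and limma-voom (limma 3.58.1) were alternatives, with other normalisations, filters, a replicate block and each library left out. The study's own test of differential expression was DESeq2. The scripts were tested on simulated data. For a single response, with 2 libraries against 2, an exact permutation test cannot go below 0.333. That floor does not describe the difference in induction, which spans 4 groups. All p-values come from models across all genes. TMM factors ran from 0.958 to 1.03, and 3 counts, the floor for a gene at 0, were 0.0848 to 0.181 CPM, covering counting error only. Inductions were called not overlapping where the 4 ratios of a stimulated to a basal library (pseudocount 0.1 CPM) of one knockdown all lay above those of the other.

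Genes were named by rule: Gstm1; in each direction the 15 with the smallest p among those with a mean of at least 1 CPM, a log2 difference of at least 1 and inductions that did not overlap; the 27 called by DESeq2; the 10 with the smallest p for a mean log2 response of at least 2; members of lists at p under 0.05 and list extremes; and Cxcl1, Cxcl2 and Csf2. Of these 135 genes, those described were chosen after their values were seen, and the others enter the counts. Some items are not reported here. The members, lists and tests were chosen with earlier results of these data known. Sequence shared between genes was counted over all 100-base stretches of their annotated transcripts. Figures were drawn with matplotlib 3.10.9 in Python 3.11.15.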

Additional observations from a re-analysis of the deposited data

Results flagged for a closer look

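The effect of TNF-α stimulation differed between the knockdowns by DESeq2's test of the difference itself (adjusted p under 0.05) for 27 genes, while edgeR with the filter on low counts and limma-voom called 0 genes. edgeR without that filter called 103 genes higher and 31 lower, and its overlap with the 27 was not counted. On DESeq2's log2 scale, GSTM1 KD minus control KD, the difference was 3.27 for Oasl1, 2.99 for Slfn8, 2.53 for Ifit1, 2.40 for Rsad2, 2.39 for Ifit3, 2.36 for Ccl2, 2.33 for Usp18, 2.30 for Irgm2, 2.25 for mt-Nd3, 2.25 for 9930111J21Rik2 and 2.24 for Ifi47. It was 2.16 for Iigp1, 2.14 for Ifit3b, 1.98 for H2-Q6, 1.92 for Cxcl10, 1.65 for Irgm1, 1.63 for Stat2, 1.59 for Igtp, 1.41 for Parp14, 1.40 for Rnf213, 1.39 for Ifit2 and 0.99 for Irf9. In the other direction it was -3.12 for RP23-8J15.7, -1.05 for St3gal1, -0.94 for Cx3cl1, -0.84 for Dusp7 and -0.80 for Adamts9. Ifit1 and Irgm2 were called in each of the 8 analyses that left out 1 library. Of the 27 genes, 23 were among the 67 called without GSTM1 KD TNF-α replicate 2 and 4 were among the 4 called without replicate 1 of that group. Stimulated GSTM1 KD replicate 1 also had the higher summed level of interferon-stimulated genes (12055 against 7450 CPM), and the part of this library in the DESeq2 calls beyond these counts was not tested.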

How the results depend on the processing

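For the difference in induction, DESeq2 called 22 genes higher and 5 lower and edgeR without a filter on low counts 103 and 31, where the filtered edgeR fit called 0 and 0, and the other alternatives that kept all libraries called 0. Without the filter the lowest adjusted p in edgeR was 5.79e-37. The cause of these shifts was not tested. At an unadjusted p under 0.05 the 198 higher and 97 lower genes became 402 and 193 without the filter. Leaving out each library gave 0 to 2 genes higher and 0 lower at the adjusted threshold, and 130 to 282 higher and 65 to 155 lower at the unadjusted one.

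The counts for the responses moved more. Without the filter, 1114 genes rose and 873 fell on the mean of both responses, while control KD had 756 risen and 499 fallen genes and GSTM1 KD 725 and 325. In DESeq2, 453 genes fell on the mean, 549 rose and 193 fell in control KD and 115 fell in GSTM1 KD. With library size alone, 465 fell on the mean and 68 in GSTM1 KD. With only the 4 libraries of a knockdown, 70 rose and 2 fell in control KD, while 518 rose and 173 fell in GSTM1 KD. Leaving out each library gave 418 to 696 risen and 76 to 426 fallen on the mean, 164 to 285 and 15 to 97 in control KD, and for GSTM1 KD 74 to 380 and 0 to 64.

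The groups share replicate numbers, but the labels do not say what a number marks. The deviations of same-numbered libraries from their group means correlated at 0.165 to 0.575 across genes. With the replicate block the difference kept 0 adjusted calls, with 324 higher and 178 lower at an unadjusted p under 0.05, and the counts of risen and fallen genes were 1146 and 758 on the mean, 652 and 336 in control KD, and for GSTM1 KD 613 and 195.

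The interferon-stimulated genes had a median difference of 1.21 (49 genes with at least 10 counts in every library) to 1.42 over the alternatives that kept all libraries, and 0.97 to 1.72 with a library left out, with 51 to 58 positive. The differences of 8 genes named here changed sign with a library left out. They ran from -0.78 to 0.0045 for Nfkb1, -1.57 to 0.30 for Cxcl1, -1.37 to 0.34 for Zc3h12a, -0.73 to 0.18 for Gstm1, -0.048 to 0.23 for Irf1, -0.070 to 0.20 for Nfkbie, -0.25 to 0.14 for Icam1 and -0.19 to 0.16 for Ifi27. Ifi27 was also at 0.011 without the filter and 0.0071 with effective lengths as offsets. Depth limits genes under about 1 CPM, such as Csf2, Mmp9 and the interferon genes, whose basal levels were near 3 counts in some libraries.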
